A study of Homo sapiens with 33 samples.

Results

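OVCAR3 and OVCAR4 ovarian carcinoma cells were carried through cisplatin in the laboratory, and the question put to the data was what every selection had in common. OVCAR3 and OVCAR4 are established cell lines of human high-grade serous ovarian carcinoma. From each parent the study derived 2 lines independently, named ResA and ResB, by repeated short exposures to cisplatin at rising doses over months, and the lines were not kept in the drug afterwards. The members were the 12 libraries of OVCAR3 ResA, OVCAR3 ResB, OVCAR4 ResA and OVCAR4 ResB and the 6 libraries of the parents OVCAR3 and OVCAR4, 18 of the 33 libraries of the series, with 3 per line. All were chosen by line name alone and not by any measured value. Untreated parents of the same age in culture were not described, so selection by cisplatin and long culture cannot be told apart. The families also grew in media that differed in serum and supplements. Family was therefore a covariate in every fit across families, and a change was counted as recurrent only when each of the 4 selected lines showed it against its own parent. ResA and ResB of a family were compared with the same 3 parent libraries, so the 4 comparisons rest on 2 sets of controls.

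Cisplatin forms adducts that crosslink the bases of DNA. Cells are known to survive it by taking up or retaining less platinum, by binding it to thiols, by repairing or tolerating the adducts, or by failing to start apoptosis. High-grade serous carcinoma cells are of Mullerian epithelial type, keep PAX8 and keratins, and express genes of both epithelial and mesenchymal programmes in varying degree.

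The 18 libraries held 18.1 to 36.6 M (mega) expected counts, with a median of 28.8 M. The Mullerian transcription factor PAX8 stood at 46.1 to 217 TPM (transcript abundance per length, scaled to the same total in each library) over all of them, the epithelial adhesion gene EPCAM at 454 to 892 TPM and the keratin KRT7 at 654 to 1340 TPM. Other markers were less even. KRT18 was at 1650, 2600 and 3020 TPM in OVCAR3 and at 237, 396 and 505 TPM in OVCAR3 ResA. KRT8 was at 2360, 2310 and 2650 TPM against 776, 642 and 777 TPM in these lines, and MUC16 at 69.0, 64.6 and 69.5 TPM against 24.4, 28.4 and 37.7 TPM. In OVCAR4 MUC16 was at 10.4, 13.3 and 11.9 TPM, with 18.9, 15.5 and 17.3 TPM in ResA and 6.29, 8.2 and 4.54 TPM in ResB. WT1, a transcription factor of serous tumours, was at 0.416 to 0.815 TPM in the OVCAR4 family apart from a single library. Leukocyte markers did not exceed 8.22 TPM as a line mean, with 3 of 15 at 0 in all libraries, and fibroblast and endothelial markers did not exceed 17.7 TPM. In bulk RNA, fewer cells with a transcript and less transcript per cell cannot be told apart. The labels number the 3 libraries of a line and do not say that they came from separate cultures, so p-values measure only the spread between these libraries.

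Some libraries stood apart. In OVCAR4 ResA replicate 1, 36 of 49 genes that were under 0.1 TPM in the other libraries of that line, yet at 50 TPM or more in every library of some other line, reached 0.5 TPM. In the other 17 libraries of the OVCAR families no more than 3 such genes did. UQCRH, a respiratory chain gene, was at 58.5 TPM in that library against 0.218 and 0.104 TPM in its sisters, ANPEP at 17.9 against 0.0 and 0.0172 TPM, and WT1 at 5.91 against 0.416 and 0.576 TPM. Results that rest on OVCAR4 ResA are given without that library where it mattered. The share of counts from the mitochondrial ribosomal RNAs RNR1 and RNR2 ran from 1.12% to 14.8%. The share averaged 10.6% ± 4.94 (SD, n = 3) in OVCAR4, 4.44% ± 4.14 in OVCAR4 ResA and 5.98% ± 6.15 in OVCAR4 ResB, so that it moved with the comparison in that family. It was 4.95% ± 2.56 in OVCAR3, 3.74% ± 1.85 in OVCAR3 ResA and 5.32% ± 3.92 in OVCAR3 ResB.

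The number of genes called, at an adjusted p under 0.05 by DESeq2, differed widely among the selected lines. OVCAR3 ResA had 3992 genes higher and 4154 lower than its parent, which is 22% and 22.9% of the genes tested. OVCAR3 ResB had 671 higher and 584 lower (4.1% and 3.57%). In OVCAR4 ResA the counts were 1002 and 782 (6.68% and 5.22%), and in OVCAR4 ResB 1452 and 1401 (9.09% and 8.77%). Such counts depend on the spread between libraries as well as on the size of change. The standard error for GPR160, for example, was 0.14 in OVCAR3 ResA and 0.34, 0.33 and 0.33 in the other lines. More calls in a line therefore need not mean larger changes. Of 14440 genes tested in all 4 comparisons, 83 recurred in the same direction in every selected line. Of these, 44 were higher (0.305%) and 39 lower (0.27%). A further 50 (0.346%) were called one way in both selected OVCAR3 lines and the opposite way in both selected OVCAR4 lines, 19 of them higher in OVCAR3 and 31 higher in OVCAR4. The smallest of the 4 changes had a median size of 1.24 on the log2 scale over the 83 genes and ran from 0.25 to 5.5, and in 59 genes it was at least 1. On TPM, all 83 kept their direction in each comparison. Normalised counts of the selected line and of its parent did not overlap in any of the 4 comparisons for 71 of the 83 genes. The same complete separation was found upwards in 217 genes (1.5%) and downwards in 229 (1.59%) of all those tested, and with opposite directions in the families in 212. The 83 genes were chosen on these same libraries, so their direction on TPM and their separation are not independent evidence.

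**Figure D1:**
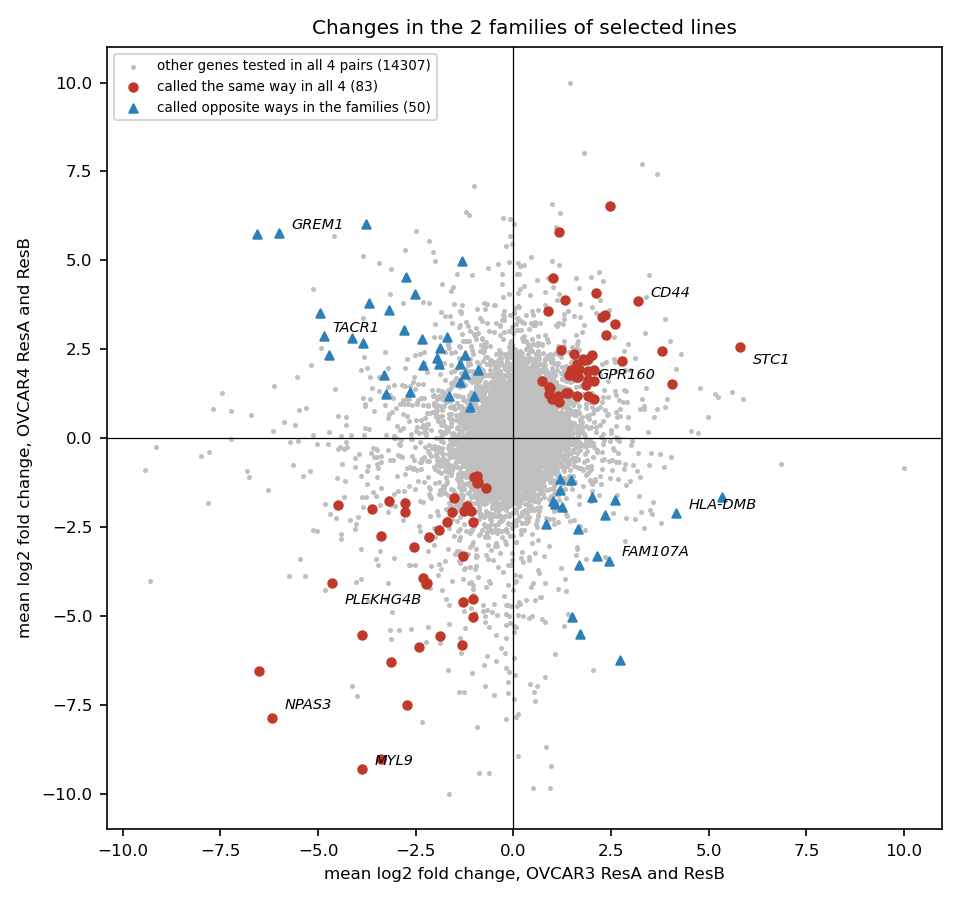
Each point is a gene tested in all 4 comparisons, placed by its mean log2 fold change in OVCAR3 ResA and ResB (x axis) and in OVCAR4 ResA and ResB (y axis), with values beyond 10 drawn at 10. The 83 genes called the same way in all 4 lines (red) lie at the upper right and lower left, and the 50 called opposite ways in the families (blue triangles) at the other corners, as their definitions require.

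Several of the genes that rose in all 4 lines encode cell-surface and adhesion molecules. CD44, the hyaluronan receptor that also serves as a stemness marker (chromosome 11, 35139171 to 35232402, GRCh38.p14), was at 1.15, 0.702 and 0.735 TPM in OVCAR3. It reached 3.98, 4.6 and 5.56 TPM in OVCAR3 ResA and 13.2, 10.0 and 23.4 TPM in OVCAR3 ResB. In OVCAR4 it was at 0.83, 0.24 and 0.33 TPM, against 13.9, 7.02 and 10.7 TPM in OVCAR4 ResA and 5.87, 7.01 and 9.2 TPM in OVCAR4 ResB. No selected library overlapped its parent. The log2 fold changes by DESeq2 were 2.33 ± 0.24 (SE), 4.04 ± 0.36, 4.15 ± 0.37 and 3.56 ± 0.43 in that order of lines, with adjusted p of 8.78e-21, 7.07e-26, 1.29e-26 and 1.91e-14.

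GPR160, an orphan G protein-coupled receptor (chromosome 3, 170037995 to 170085392), changed by nearly the same amount in every line. It was at 26.1, 17.3 and 23.9 TPM in OVCAR3 and at 98.1, 85.4 and 66.7 TPM in OVCAR3 ResA, with 122, 64.8 and 78.7 TPM in OVCAR3 ResB. OVCAR4 had 14.2, 12.2 and 8.03 TPM, OVCAR4 ResA 68.8, 79.4 and 94.2 TPM and OVCAR4 ResB 53.2, 81.1 and 79.0 TPM. The groups were separate in both families. Its log2 fold changes were 1.76 ± 0.14, 1.89 ± 0.34, 2.31 ± 0.33 and 2.09 ± 0.33 (DESeq2 adjusted p = 3.41e-33, 1.75e-06, 4.26e-10 and 1.73e-08).

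Integrin subunits rose with them. ITGB6, which pairs with the alpha-v subunit and activates latent TGF-beta (chromosome 2, 160099671 to 160200272), was at 3.0, 2.48 and 1.49 TPM in OVCAR3, at 12.9, 12.7 and 6.51 TPM in OVCAR3 ResA and at 5.48, 3.72 and 16 TPM in OVCAR3 ResB. It was at 6.54, 2.56 and 3.5 TPM in OVCAR4, at 16.4, 31.0 and 39.8 TPM in OVCAR4 ResA and at 14.7, 29.4 and 33.5 TPM in OVCAR4 ResB. The selected libraries lay above the parents throughout, although replicates differed by several fold within OVCAR3 ResB. ITGB2, the beta subunit of the leukocyte integrins, rose from 0.203 ± 0.0724 TPM (SD, n = 3) in OVCAR3 to 1.61 ± 0.227 in ResA and 5.72 ± 0.877 in ResB, and from 0.474 ± 0.036 TPM in OVCAR4 to 5.48 ± 1.39 in ResA and 2.76 ± 0.789 in ResB. These are low levels, and their log2 fold changes were 2.86, 4.72, 2.97 and 1.93. Other genes of the cell surface in the group were the tetraspanin TSPAN2, the receptor phosphatase PTPRM and GPR39.

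Genes of secreted factors were also among those that rose. STC1, a glycoprotein hormone (chromosome 8, 23841929 to 23854806), was at 0.0491, 0.0709 and 0.0716 TPM in OVCAR3, at 2.07, 1.92 and 1.99 TPM in ResA and at 9.11, 7.5 and 5.18 TPM in ResB. In OVCAR4 it started higher, at 3.74, 3.0 and 3.41 TPM, and stood at 38.7, 34.5 and 31.7 TPM in ResA and 18.1, 28.5 and 27.3 TPM in ResB. Its log2 fold changes were therefore larger in the OVCAR3 lines (4.85 ± 0.54 and 6.75 ± 0.61) than in the OVCAR4 lines (2.85 ± 0.33 and 2.28 ± 0.31). That difference passed the test of status by family (−3.50 on the log2 scale, DESeq2 adjusted p = 0.000781). The size of the OVCAR3 changes, and of this difference, rests on parental levels of at most 0.0716 TPM. BMP4, a ligand of the TGF-beta superfamily, rose from 1.4, 2.52 and 2.31 TPM in OVCAR3 to 6.21, 10.6 and 13.7 TPM in ResA and 15.4, 18.1 and 12.9 TPM in ResB. In OVCAR4 every library had 3 counts or fewer, and against that floor BMP4 was at least 16.4-fold higher in ResA and at least 17.8-fold higher in ResB. IGFBP7, which binds insulin and its growth factors, went from 3.07 ± 0.0373 TPM in OVCAR3 to 37.7 ± 7.19 and 11.5 ± 4.68 TPM, and from 15.4 ± 9.46 TPM in OVCAR4 to 413 ± 77.8 and 86.0 ± 5.28 TPM. SFRP1, a secreted WNT antagonist, changed unevenly, with log2 fold changes of 0.51 ± 0.18, 1.25 ± 0.40, 1.82 ± 0.45 and 5.31 ± 0.39. The protease inhibitor SERPINA1 (1.14, 3, 2.31 and 1.52) and the collagen COL6A2 (1.25, 1.20, 1.55 and 3.38) rose as well.

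**Figure D2:**
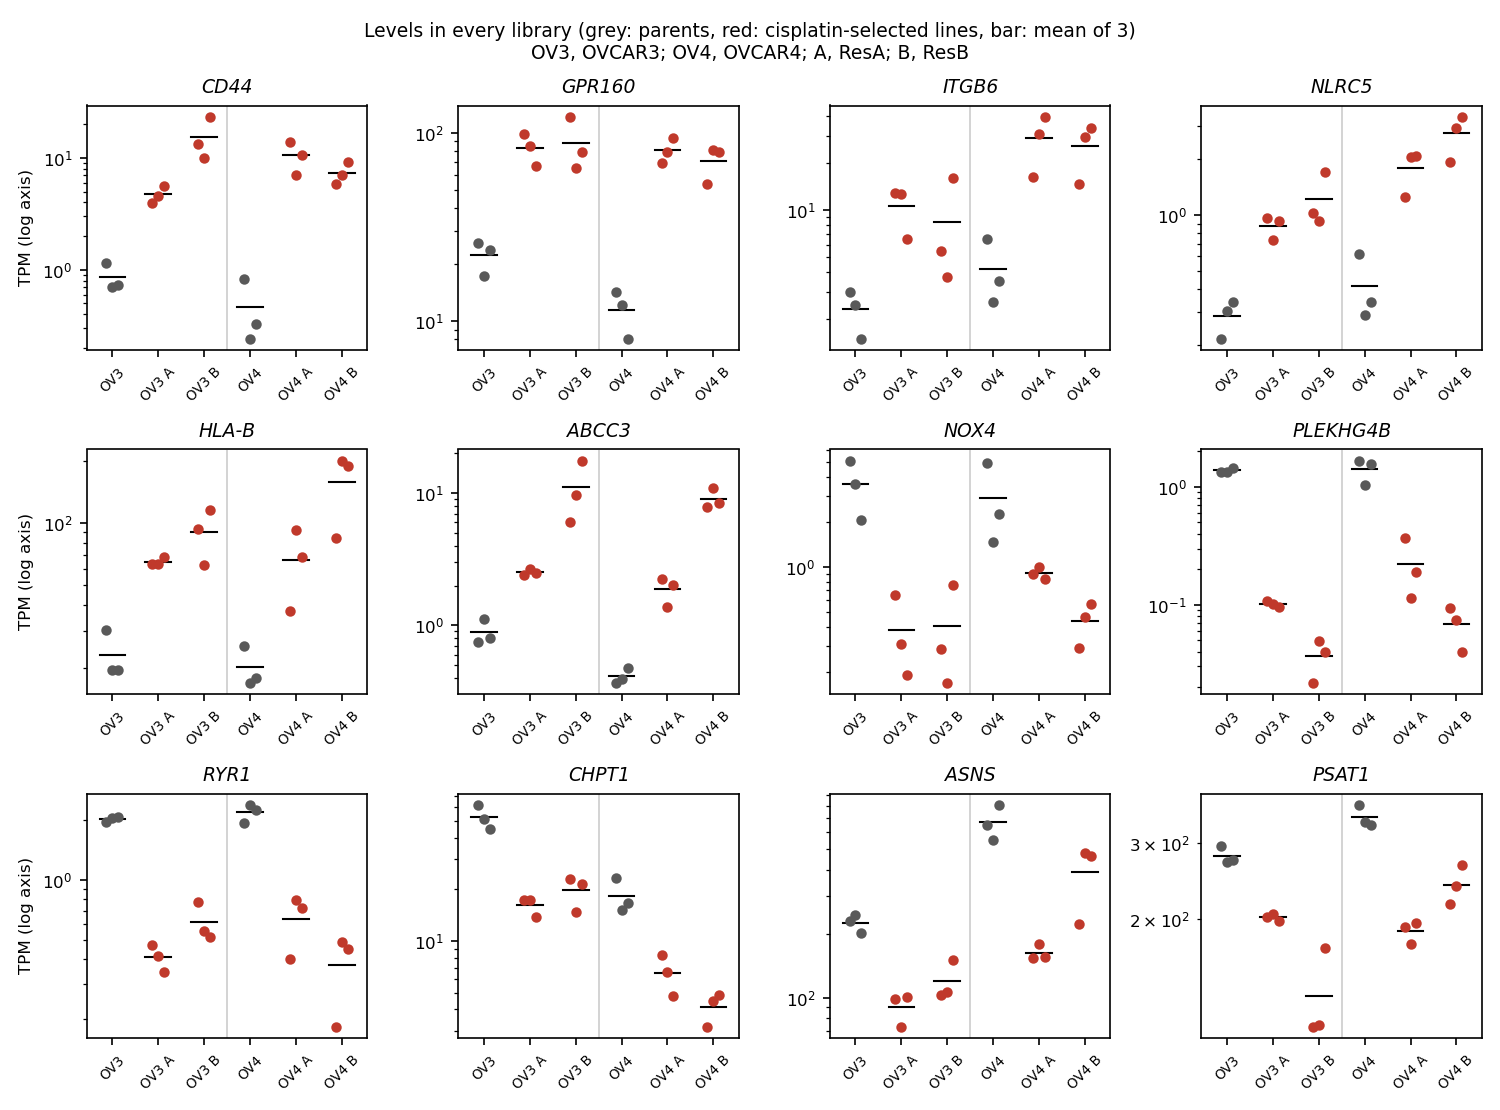
TPM on a log axis in each of the 18 libraries for 12 of the genes called in all 4 selected lines; grey points are parents, red points selected lines and bars the mean of 3 libraries. In each of these panels the 6 red points of a family lie on 1 side of its grey points.

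Antigen presentation was represented by a regulator and a target. NLRC5, the coactivator of MHC class I genes, was at 0.216, 0.306 and 0.342 TPM in OVCAR3, at 0.961, 0.731 and 0.931 TPM in OVCAR3 ResA and at 1.02, 0.929 and 1.69 TPM in OVCAR3 ResB. It was at 0.619, 0.29 and 0.343 TPM in OVCAR4, at 1.25, 2.04 and 2.08 TPM in OVCAR4 ResA and at 1.92, 2.94 and 3.37 TPM in OVCAR4 ResB. HLA-B, a class I heavy chain (chromosome 6, 31353875 to 31357179), was at 30.4, 19.6 and 19.6 TPM in OVCAR3, against 63.3, 63.2 and 68.4 TPM in ResA and 93.9, 62.5 and 115 TPM in ResB. In the OVCAR4 family the values were 25.6, 16.9 and 17.8 TPM in the parent, 37.8, 92.9 and 68.7 TPM in ResA and 84.9, 200 and 189 TPM in ResB. Parents and selected lines did not overlap for either gene. HLA-B changed by 1.37 ± 0.15, 1.85 ± 0.32, 1.13 ± 0.35 and 2.33 ± 0.34 on the log2 scale (DESeq2 adjusted p = 4.99e-18, 6.10e-07, 0.0183 and 7.67e-10). HLA class I genes are near-identical and polymorphic, so their reads may be split between loci.

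Of the 18 genes of the class I list, 9, 6, 3 and 7 were higher in OVCAR3 ResA, OVCAR3 ResB, OVCAR4 ResA and OVCAR4 ResB, and 2, 0, 0 and 0 were lower, with 22%, 4.1%, 6.68% and 9.09% of all genes higher. The peptide transporter subunit TAP1 was called higher in 3 lines (1.02, 1.18 and 1.34) and had a value of 1.11 in OVCAR4 ResA. HLA-F and the immunoproteasome subunit PSMB9 were also called in every line but OVCAR4 ResA. The DNA-sensing adaptor TMEM173 (STING1) rose in all 4 lines by 0.77, 1.92, 1.30 and 1.26, and the interferon-inducible GTPase GBP3 by 1.14, 2.15, 2.29 and 1.16.

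KLF10, a TGF-beta-inducible zinc finger factor, changed evenly, by 1.13, 1.17, 1.20 and 1.18 on the log2 scale. It belongs with MAP4K3 (1.24, 1.09, 1.04 and 1.01) and CTSH, cathepsin H (0.94, 1.02, 1.04 and 1.16), to the genes of small change that recurred.

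ABCC3, a transporter of organic anions and conjugates, was the only gene of the platinum entry and efflux list called in all 4 lines. It was at 0.744, 1.12 and 0.801 TPM in OVCAR3 and at 0.366, 0.395 and 0.473 TPM in OVCAR4. The ResA lines rose little, to 2.42, 2.65 and 2.49 TPM and to 2.23, 1.37 and 2.02 TPM, and the ResB lines more, to 6.06, 9.64 and 17.6 TPM and to 7.82, 10.9 and 8.42 TPM. Its log2 fold changes were 1.26, 3.50, 1.68 and 4.13. Without OVCAR4 ResA replicate 1 the call in OVCAR4 ResA was lost (1.13, DESeq2 adjusted p = 0.142). EGR3, KCNMA1 and TMEM86A were also not called in OVCAR4 ResA without it. Over the 4 comparisons, of the 12 fits that leave a replicate out, 4 lost the call of ABCC3, 8 that of EGR3, 8 that of KCNMA1 and 5 that of TMEM86A, and ABCC3 had a DESeq2 adjusted p of 0.447 in OVCAR4 ResA without replicate 3. Such losses were not particular to these genes. TSPAN2 lost its call in 9 of the 12 fits, NDUFA8 in 8 and NLRC5 in 7. KLF10, MAP4K3, CTSH, PSAT1 and RPS16 each lost it in 6, while 5 of the 83 genes lost none. KCNMA1 was at 5.15 TPM in OVCAR4 ResA replicate 1, against 0.319 and 0.134 TPM in its sisters and up to 0.209 TPM in OVCAR4. Without OVCAR4 ResA replicate 1, 107 genes were shared, among them 79 of the 83.

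Genes that fell in all 4 lines included ion channels and an oxidase. NOX4, an NADPH oxidase that makes hydrogen peroxide (chromosome 11, 89324353 to 89589557), was at 5.13, 3.56 and 2.05 TPM in OVCAR3, at 0.649, 0.307 and 0.19 TPM in ResA and at 0.284, 0.169 and 0.756 TPM in ResB. In OVCAR4 it was at 4.94, 1.48 and 2.26 TPM, against 0.904, 1.0 and 0.83 TPM in ResA and 0.288, 0.468 and 0.567 TPM in ResB. The groups were separate, and the log2 fold changes were −3.60 ± 0.38, −3.20 ± 0.56, −2.21 ± 0.50 and −3.31 ± 0.55 (DESeq2 adjusted p = 1.21e-19, 9.35e-07, 0.000341 and 6.47e-08). RYR1, the calcium release channel of skeletal muscle, fell from 1.96, 2.05 and 2.06 TPM in OVCAR3 to 0.473, 0.412 and 0.344 TPM in ResA and 0.777, 0.551 and 0.516 TPM in ResB. It fell from 1.94, 2.39 and 2.24 TPM in OVCAR4 to 0.402, 0.794 and 0.721 TPM in ResA and 0.182, 0.49 and 0.447 TPM in ResB. The potassium channel genes KCNJ5 (−3.40, −1.68, −2.92 and −3.21) and KCNQ5 also fell. In OVCAR4 ResB, KCNQ5 had no more than 3 counts in any library, at least 51.6-fold lower than OVCAR4.

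PLEKHG4B, which encodes a guanine nucleotide exchange factor (chromosome 5, 92168 to 189966), had the largest decrease whose 4 values were all measured above the floor. It was at 1.35, 1.35 and 1.44 TPM in OVCAR3 and at 1.67, 1.03 and 1.55 TPM in OVCAR4. OVCAR3 ResA had 0.107, 0.102 and 0.0961 TPM and OVCAR3 ResB 0.0217, 0.0489 and 0.0399 TPM. OVCAR4 ResA had 0.365, 0.114 and 0.188 TPM and OVCAR4 ResB 0.0944, 0.0742 and 0.0395 TPM. These are log2 fold changes of −3.89 ± 0.28, −5.40 ± 0.56, −3.25 ± 0.48 and −4.92 ± 0.51. CHPT1, which makes phosphatidylcholine, was abundant and fell in each line, most in OVCAR4 ResB. It was at 62.3, 51.4 and 44.9 TPM in OVCAR3, at 17.3, 17.4 and 13.8 TPM in ResA and at 23.0, 14.8 and 21.5 TPM in ResB. OVCAR4 had 23.3, 15.1 and 16.6 TPM, its ResA 8.28, 6.64 and 4.77 TPM and its ResB 3.16, 4.46 and 4.84 TPM. The log2 fold changes were −1.84 ± 0.13, −1.53 ± 0.33, −2.01 ± 0.38 and −2.70 ± 0.35.

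Several genes were at 0.0 TPM in every library of OVCAR4 ResB and reduced to a measured level in the other 3 lines. MYL9, the regulatory light chain of smooth muscle and non-muscle myosin, was at 260, 299 and 267 TPM in OVCAR4, at 31.7, 33.0 and 38.6 TPM in OVCAR4 ResA and at 0.0 TPM in each library of OVCAR4 ResB, at least 2070-fold lower. In OVCAR3 it was at 42.5, 51.5 and 61.9 TPM, against 0.671, 2.1 and 1.7 TPM in ResA and 10.8, 15 and 6.5 TPM in ResB. NPAS3, a neuronal PAS-domain transcription factor, fell from 7.11, 8.59 and 8.33 TPM in OVCAR4 to 1.96, 0.901 and 1.12 TPM in ResA and to 0.0 TPM in ResB, at least 352-fold lower. In the OVCAR3 family it went from 23.1, 33.8 and 41.9 TPM to 0.602, 0.603 and 0.801 TPM in ResA and 0.505, 0.342 and 0.24 TPM in ResB. The orphan nuclear receptor NR2F1 and the interferon-induced GTPase MX2 were at 0.0 TPM in OVCAR4 ResB too. HAND2, a transcription factor of Mullerian stroma and heart, fell by 1.61 and 2.85 on the log2 scale in OVCAR3 ResA and ResB and by 3.16 in OVCAR4 ResB, and was at least 25.0-fold lower in OVCAR4 ResA. FOLR1, the folate receptor that marks serous carcinoma, fell from 37.9 ± 10.1 TPM in OVCAR3 to 2.45 ± 0.778 and 15 ± 8.86 TPM, and from 65.5 ± 17.3 TPM in OVCAR4 to 32.2 ± 5.70 and 16.2 ± 5.70 TPM.

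MX2 moved against its neighbour and relative MX1. MX2 (chromosome 21, 41362027 to 41409393) fell from 2.91, 1.58 and 1.22 TPM in OVCAR3 to 0.834, 0.707 and 0.731 TPM in ResA and 0.191, 0.0983 and 0.0884 TPM in ResB, and from 1.77, 1.36 and 1.25 TPM in OVCAR4 to 0.106, 0.0 and 0.0214 TPM in ResA. MX1 (chromosome 21, 41420558 to 41459214) rose from 6.72, 3.85 and 5.29 TPM in OVCAR3 to 10.3, 7.83 and 11.7 TPM in ResA and 30.8, 9.38 and 10.9 TPM in ResB. In OVCAR4 it rose from 0.433, 0.445 and 0.214 TPM to 10.3, 3.41 and 3.63 TPM in ResA, and the difference in ResB (0.655, 1.87 and 2.3 TPM) did not pass the test (log2 fold change 1.39 ± 0.65, DESeq2 adjusted p = 0.126). No interferon-stimulated gene of the 40 on the list was higher in all 4 lines. With 0.305% of all genes higher in all 4, this absence is near the background and is not a result about the list. GBP3, given above, is not on that list. Counts of higher and lower members were 7 and 14 in OVCAR3 ResA, 8 and 2 in OVCAR3 ResB, 13 and 3 in OVCAR4 ResA and 9 and 6 in OVCAR4 ResB, where 22%, 4.1%, 6.68% and 9.09% of all genes were higher and 22.9%, 3.57%, 5.22% and 8.77% lower in that order of lines.

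Of the genes of amino acid synthesis, ASNS and PSAT1 fell in all 4 lines. ASNS, asparagine synthetase (chromosome 7, 97851677 to 97928441), was at 229, 246 and 201 TPM in OVCAR3, at 98.4, 72.7 and 101 TPM in ResA and at 103, 106 and 150 TPM in ResB. It was at 647, 551 and 809 TPM in OVCAR4, at 154, 178 and 156 TPM in ResA and at 222, 479 and 466 TPM in ResB. PSAT1, an aminotransferase of serine synthesis (chromosome 9, 78297125 to 78330093), was at 294, 271 and 274 TPM in OVCAR3, at 202, 206 and 198 TPM in ResA and at 113, 114 and 172 TPM in ResB. In OVCAR4 it was at 367, 335 and 330 TPM, against 192, 175 and 196 TPM in ResA and 217, 238 and 266 TPM in ResB. Every selected library lay below every library of its parent for both genes. The log2 fold changes of ASNS were −1.40 ± 0.14, −0.99 ± 0.31, −2.46 ± 0.31 and −1.33 ± 0.32, and those of PSAT1 −0.61 ± 0.09, −1.21 ± 0.31, −1.40 ± 0.30 and −1.09 ± 0.31. These genes are textbook targets of the amino acid response factor ATF4. ATF4 itself was called lower in OVCAR3 ResA (−1.21) and OVCAR4 ResA (−1.36) and had values of −0.24 and −0.74 in the ResB lines. Of the 27 genes on the list of unfolded protein and amino acid stress, 15, 4, 13 and 6 were lower and 7, 3, 0 and 1 higher in the 4 lines in the usual order, with 22.9%, 3.57%, 5.22% and 8.77% of all genes lower and 22%, 4.1%, 6.68% and 9.09% higher. SHMT2 and SLC7A11 were each called lower in 3 of the 4 lines and XBP1 likewise. SLC7A5, a carrier of large neutral amino acids, was higher in both OVCAR3 lines (2.26 and 1.11) and lower in OVCAR4 ResB (−0.90).

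The 250 bases before a transcript start of each of these genes in RefSeq (GRCh38.p14) are given because both fell in every line, with the 8 letters TGATGNAA of the composite element that ATF4 binds searched on both strands and a match in capitals. Those of ASNS are at chr7:97872409-97872658 on the minus strand, and hold a match 68 to 61 bases before that start. This start lies inside the interval given for ASNS, which reaches further upstream, and the RefSeq promoter table holds another start of the gene. Those of PSAT1 are at chr9:78296875-78297124 on the plus strand, and these letters are not in that window.
ASNS: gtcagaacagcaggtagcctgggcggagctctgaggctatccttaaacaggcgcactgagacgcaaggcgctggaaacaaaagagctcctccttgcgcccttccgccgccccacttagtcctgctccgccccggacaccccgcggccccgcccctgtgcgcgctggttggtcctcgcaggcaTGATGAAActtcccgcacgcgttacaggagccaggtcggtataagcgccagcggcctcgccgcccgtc
PSAT1: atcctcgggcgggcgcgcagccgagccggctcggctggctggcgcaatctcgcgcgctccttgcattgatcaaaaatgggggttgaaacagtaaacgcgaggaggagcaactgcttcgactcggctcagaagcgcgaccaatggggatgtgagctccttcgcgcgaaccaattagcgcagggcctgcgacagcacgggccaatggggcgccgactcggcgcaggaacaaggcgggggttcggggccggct
Over all 27305 promoters of this length 3.19% held these letters, against 1 of 31 promoters matched to genes higher in all 4 lines and 1 of 30 matched to genes lower in all 4. The AP-1 letters TGANTCA were in 6.6% of all promoters, in 2 of the 31 and in 1 of the 30. The STAT letters TTCNNNGAA were in 6.78% of all, in 1 of the 31 and in 4 of the 30, and the TEAD letters CATTCC in 11.9% of all and in 4 of each group.

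**Figure D3:**
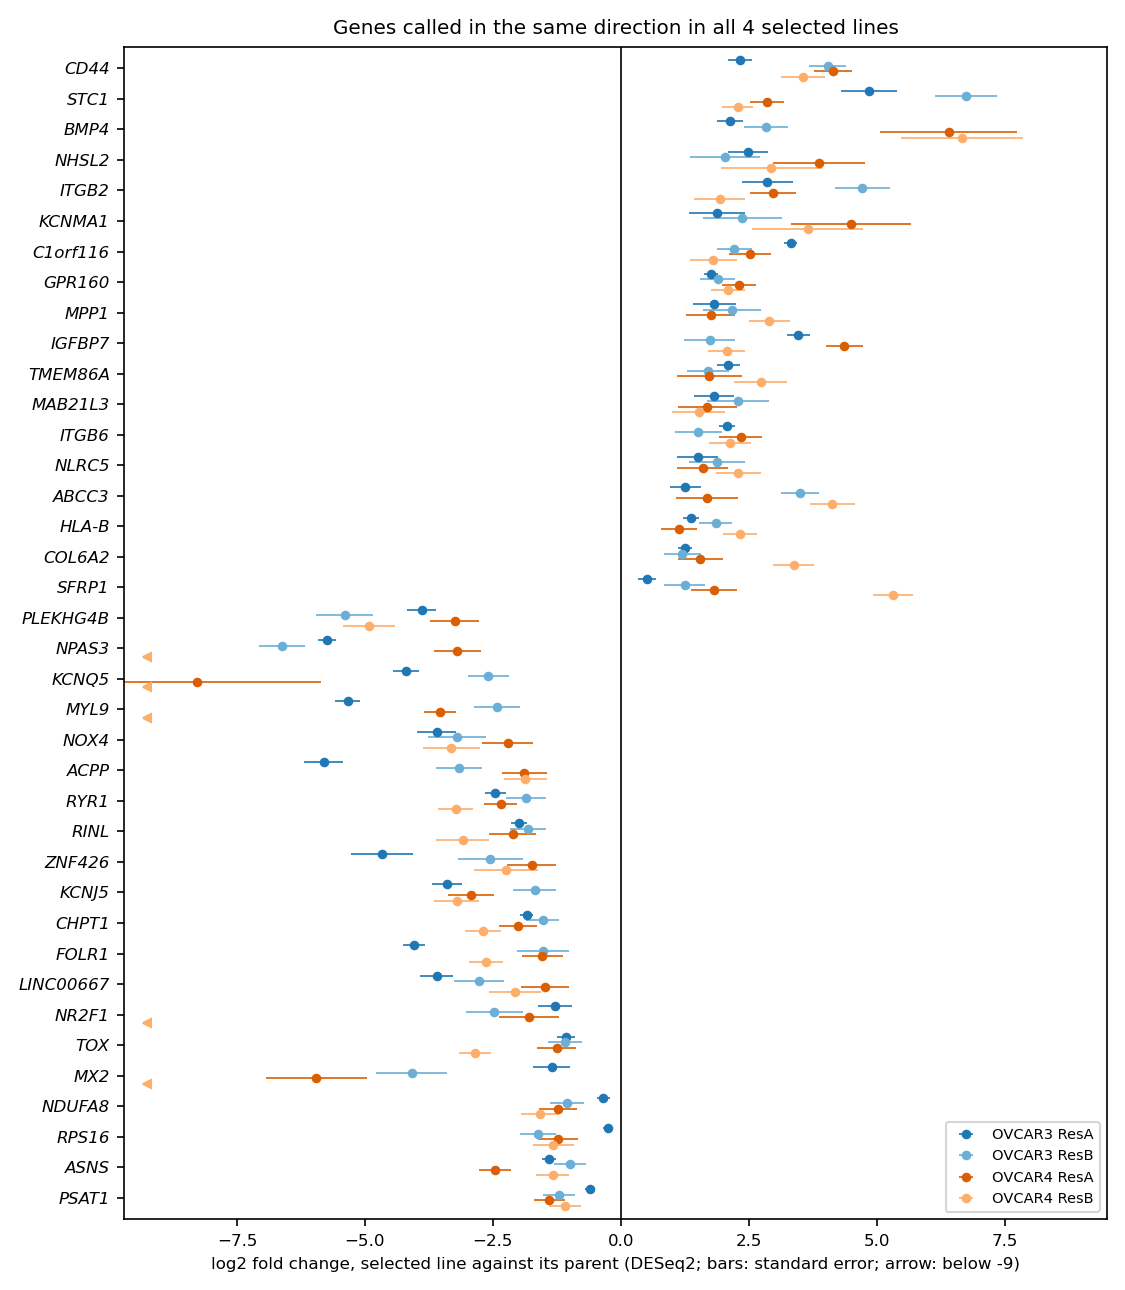
DESeq2 log2 fold changes with standard errors for 38 named genes called alike in all 4 selected lines, with OVCAR3 ResA in dark blue, OVCAR3 ResB in light blue, OVCAR4 ResA in dark orange and OVCAR4 ResB in light orange. Arrows mark values below −9, which belong to genes with 3 counts or fewer in each OVCAR4 ResB library.

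RPS16 and NDUFA8 were the only members of the ribosomal protein and respiratory chain lists called in all 4 lines. RPS16, a cytosolic ribosomal protein with many processed pseudogenes, changed by −0.25 ± 0.10, −1.62 ± 0.36, −1.22 ± 0.39 and −1.32 ± 0.40. NDUFA8, a subunit of respiratory complex I, changed by −0.34 ± 0.12, −1.05 ± 0.33, −1.23 ± 0.37 and −1.58 ± 0.37. Their lists had more members lower than higher in each line, at unequal rates. Of 50 cytosolic ribosomal protein genes, 26, 1, 34 and 41 were lower in OVCAR3 ResA, OVCAR3 ResB, OVCAR4 ResA and OVCAR4 ResB, with median log2 fold changes of −0.26, −0.21, −1.14 and −1.32 and medians on log2(TPM + 1) of −0.12, −0.13, −0.58 and −0.70. Of 44 nuclear genes of the respiratory chain, 22, 1, 3 and 22 were lower, with medians of −0.28, −0.42, −0.71 and −0.98. In OVCAR3 ResA 6 ribosomal and 5 respiratory chain genes were higher, and 0 in the other lines. Of all genes 22.9%, 3.57%, 5.22% and 8.77% were lower, so the counts in OVCAR3 ResB are below that share for both lists. The median of all genes tested was −0.02, 0.00, −0.01 and −0.01 on the DESeq2 scale, and 0.13, 0.11, 0.41 and 0.44 on log2(TPM + 1) among genes with a mean of at least 1 TPM. The mitochondrial ribosomal RNA share moved with the OVCAR4 comparisons, as given above. With that share as a covariate in the pooled fit 24 ribosomal protein genes and 21 respiratory chain genes were lower, against 29 and 16 without it.

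**Figure D4:**
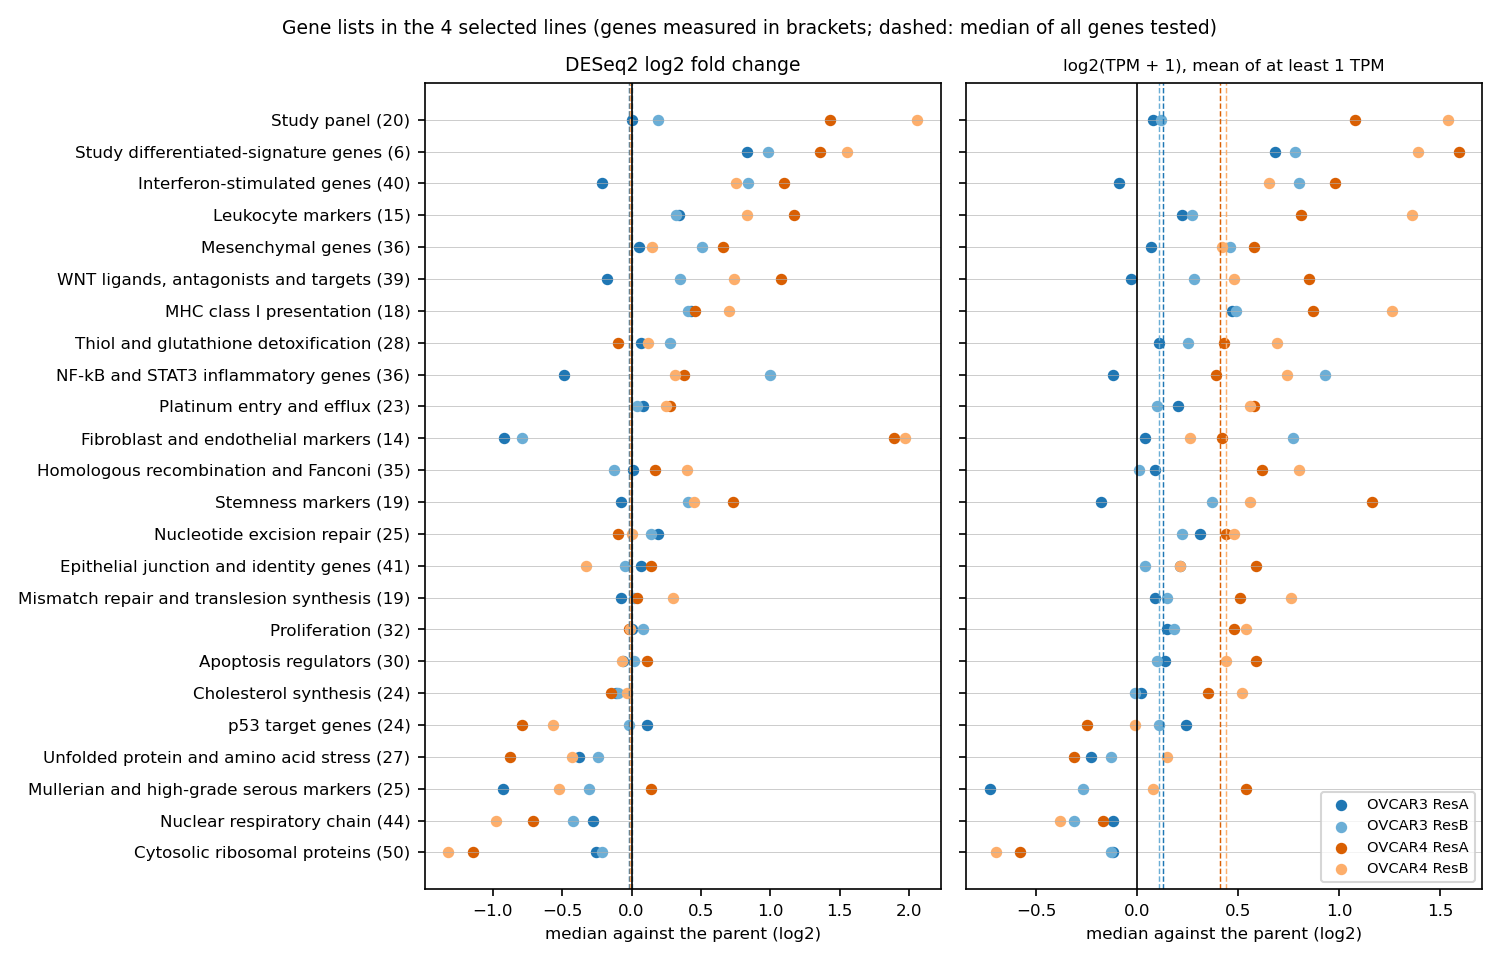
Median change of 24 gene lists in each selected line against its parent, by DESeq2 log2 fold change (left) and by log2(TPM + 1) among genes with a mean of at least 1 TPM (right), with dashed lines at the median of all genes. The cytosolic ribosomal proteins and the nuclear respiratory chain have negative medians in all 4 lines on both scales. MHC class I presentation has positive ones, as do platinum entry and efflux, mesenchymal genes, leukocyte markers and the differentiated-signature genes. On log2(TPM + 1) the median of all genes is itself positive, at 0.13, 0.11, 0.41 and 0.44. Mesenchymal genes lie below it in OVCAR3 ResA (0.07) and OVCAR4 ResB (0.42), and platinum entry and efflux in OVCAR3 ResB (0.10). Of the 15 leukocyte markers 6 were tested in the pooled fit.

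Lists of the known routes of platinum resistance were examined in the same way. None of the 35 genes of homologous recombination and Fanconi repair, 25 of nucleotide excision repair, 19 of mismatch repair and translesion synthesis, 30 apoptosis regulators or 28 measured genes of thiol and glutathione detoxification recurred in the same direction across the 4 lines. Nor were any of 36 NF-kB and STAT3 inflammatory genes, 41 epithelial genes, 32 proliferation genes, 24 cholesterol synthesis genes, 24 p53 targets, 15 leukocyte markers or 14 fibroblast and endothelial markers. With 0.305% and 0.27% of all genes recurring, a count of 0 in lists of this size is near the background and is not a result about them. Within the thiol list, MGST1, a membrane glutathione transferase, was called lower in 3 lines (−1.15, −1.10 and −1.74) and stood at −0.50 in OVCAR3 ResB. BRCA1, the recombination gene, was called higher in OVCAR4 ResA (1.30) and OVCAR4 ResB (1.84), with −0.04 and 0.47 in the OVCAR3 lines. The copper exporter ATP7A rose in OVCAR3 ResA (0.54), OVCAR4 ResA (2.02) and OVCAR4 ResB (2.06) and stood at 0.04 in OVCAR3 ResB.

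Mesenchymal and WNT genes were called in both directions. Of all genes, 22%, 4.1%, 6.68% and 9.09% were higher and 22.9%, 3.57%, 5.22% and 8.77% lower in OVCAR3 ResA, OVCAR3 ResB, OVCAR4 ResA and OVCAR4 ResB. Of 36 mesenchymal genes, 10, 5, 5 and 10 were higher and 12, 4, 6 and 6 lower, and COL6A2 and MYL9 were shared in opposite directions. Of 39 WNT ligands, antagonists and targets, 10, 10, 12 and 10 were higher and 13, 4, 0 and 5 lower, with BMP4 and SFRP1 shared. The stemness list of 19 genes shared CD44, and its member SOX2 was called lower in OVCAR3 ResA (−3.98) and OVCAR4 ResA (−5.24) and was at least 207-fold lower in OVCAR4 ResB, with −0.73 ± 0.50 in OVCAR3 ResB (DESeq2 adjusted p = 0.553). The study's panel of 20 genes shared CD44 and ABCC3, and its 6 differentiated-signature genes shared C1orf116. Both were chosen by the study partly on these libraries and are not independent evidence of direction. C1orf116 rose from 2.99, 2.45 and 2.51 TPM in OVCAR3 to 32.5, 26.9 and 27.8 TPM in ResA and 13, 7.86 and 23.3 TPM in ResB, and from 0.631, 0.402 and 0.778 TPM in OVCAR4 to 4.0, 5.13 and 5.07 TPM in ResA and 1.39, 4.04 and 4.49 TPM in ResB. Of the 25 Mullerian and serous markers, 4, 1, 5 and 4 were higher and 17, 8, 2 and 7 lower in the same order of lines. Only FOLR1 among them was shared, where 0.305% of all genes were shared upwards and 0.27% downwards. WT1 fell from 58.9, 63.6 and 58.4 TPM in OVCAR3 to between 1.79 and 5.21 TPM in its selected lines, and was already under 1 TPM in OVCAR4.

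The calls differed in how much they rested on the tool and on single replicates. By the quasi-likelihood test of edgeR 13 genes were shared by all 4 lines, namely CD44, STC1, ITGB2, GPR160, SERPINA1 and PTPRM upwards and PLEKHG4B, MYL9, RYR1, KCNJ5, HAND2, ARMCX2 and DOK5 downwards. All of these belong to the 83. Leaving out replicate 1, 2 or 3 from every line gave 74, 7 and 18 shared genes, among them 34, 7 and 14 of the 83. CD44, STC1, GPR160, PLEKHG4B and MYL9 were called in all 4 lines whichever replicate was left out. When the mitochondrial ribosomal RNA share took the place of the replicate term, 277 genes were shared, among them 68 of the 83.

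With the line as the unit, counts were summed over the 3 libraries and the 4 selected lines set against the 2 parents with family as covariate. DESeq2 called 317 genes higher and 171 lower (1.94% and 1.05% of those tested). Among the 83 shared genes, 36 of the 44 higher and 26 of the 39 lower passed. The sums hold the libraries that chose the 83 genes, so this overlap is not independent evidence. By edgeR's quasi-likelihood test 0 genes passed on the same sums, with 1527 at an unadjusted p under 0.05. GPR160 and ITGB6 had the smallest adjusted p among the higher shared genes, with log2 fold changes of 1.96 ± 0.22 and 2.04 ± 0.23 (DESeq2 adjusted p = 9.61e-15 for each). CD44 was at 3.54 ± 0.56 (2.78e-07 by DESeq2), NOX4 at −3.09 ± 0.48 (1.67e-07), RYR1 at −2.39 ± 0.38 (3.29e-07), PLEKHG4B at −4.12 ± 0.70 (2.57e-06) and CHPT1 at −2.04 ± 0.35 (3.06e-06). Some shared genes did not pass at this level. MYL9 at −3.92 ± 2.52 had a DESeq2 adjusted p of 0.507, SFRP1 at 2.29 ± 1.03 one of 0.262 and NPAS3 at −5.21 ± 2.18 one of 0.205.

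A line-level call did not by itself mean that all lines changed. The read-through transcript LY75-CD302, whose reads overlap its component genes, was called in OVCAR3 ResA and not in the other lines taken singly. SOWAHB rose in 3 lines (2.97, 2.15 and 2.52) and was at 1.92 ± 0.89 in OVCAR4 ResB (DESeq2 adjusted p = 0.124). The host gene of small nucleolar RNAs SNHG1 was at −1.15, −1.01, −1.36 and −1.12, called in both ResA lines.

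The pooled contrast of 12 against 6 libraries called 1431 genes higher and 1152 lower (7.89% and 6.36%), many times the number that recurred in each line. On log2(TPM + 1) by limma, among genes with a mean of at least 1 TPM, the split was 1394 higher and 194 lower. The median of all genes on that scale was itself 0.13, 0.11, 0.41 and 0.44 in the 4 lines. The split therefore does not by itself show that more genes rose than fell. When libraries of a line were treated as correlated in limma voom, 64 were higher and 111 lower, among them 20 of the 44 and 27 of the 39 shared genes. That overlap too rests on the libraries that chose the shared genes.

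Changes that ran in opposite directions in the families show what pooling alone would hide. FAM107A, a stress-associated actin regulator, rose from 15.2, 11.7 and 12.2 TPM in OVCAR3 to 65.1, 47.8 and 64.4 TPM in ResA and 74.6, 77.2 and 166 TPM in ResB. It fell from 33.6, 21.0 and 28.7 TPM in OVCAR4 to 2.47, 1.84 and 2.68 TPM in ResA and 3.8, 6.56 and 6.85 TPM in ResB. HLA-DMB, which loads MHC class II molecules, rose by 2.82 and 5.48 in the OVCAR3 lines and fell by 1.79 and 2.42 in the OVCAR4 lines, on the log2 scale. BDNF, a neurotrophin, rose by 1.70 and 2.55 and fell by 1.66 and 4.96. In the other direction GREM1, a secreted BMP antagonist, fell from 2.91, 1.96 and 1.36 TPM in OVCAR3 to at most 0.0986 TPM in its selected lines, and rose from at most 0.158 TPM in OVCAR4 to 0.629, 1.79 and 2.46 TPM in ResA and 2.98, 6.33 and 6.29 TPM in ResB. The tachykinin receptor TACR1 and DCAF12L1 on chromosome X did likewise. Across all genes tested, 1885 (10.7%) had a change that differed between the families, and 14 of the 83 shared genes were among them, 6 higher and 8 lower.

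The clinically derived lines of the series were not used to find the 83 genes and share no library with them. PEA2, PEO4 and PEO6 were taken from patients after platinum failed, and PEA1 and PEO1 from the same 2 patients when the disease was platinum sensitive. PEO4 and PEO6 share PEO1 as their control. Of the 44 genes higher in all selected lines, 14 were higher and 20 lower in PEA2 (all genes 23.3% and 23.8%), 12 and 18 in PEO4 (16.6% and 16.7%) and 7 and 22 in PEO6 (21.2% and 20.3%). Of the 39 lower genes, 33 could be tested in PEA2, with 14 lower and 9 higher, and 38 in the PEO pairs, with 11 lower and 7 higher in PEO4 and 8 lower and 16 higher in PEO6. Calls in either direction were thus as frequent or more frequent among the shared genes than among all genes, except upwards in PEO6 among the higher genes (15.9%).

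Of the shared genes, 5 kept their direction in all 3 clinical comparisons. They were C1orf116 (3.07, 0.90 and 0.57 in PEA2, PEO4 and PEO6) and ITGB2 (1.52, 0.84 and 0.94) upwards, and LINC00960 (−7.12, −0.81 and −1.96), NREP (−1.57, −0.62 and −2.02) and TOX (−4.31, −4.96 and −2.33) downwards. A further 10 were called the opposite way in all 3. GPR160, so even among the selected lines, was at −1.06 ± 0.27, −1.84 ± 0.21 and −3.07 ± 0.22, RYR1 was at 3.62, 2.77 and 3.59 and MX2 at 3.82, 2.52 and 2.65. CD44 rose in PEA2 (1.68 ± 0.21) and fell in PEO4 (−2.96 ± 0.16) and PEO6 (−6.39 ± 0.24). ASNS rose in PEA2 (2.63 ± 0.31), fell in PEO4 (−0.60 ± 0.16) and stood at −0.22 ± 0.24 in PEO6. Of the 83, 12 were called in none of the clinical comparisons. The shares of all genes with these patterns over the 3 comparisons are not given here. The counts of 5, 10 and 12 are therefore descriptions and not results about the shared genes.

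**Figure D5:**
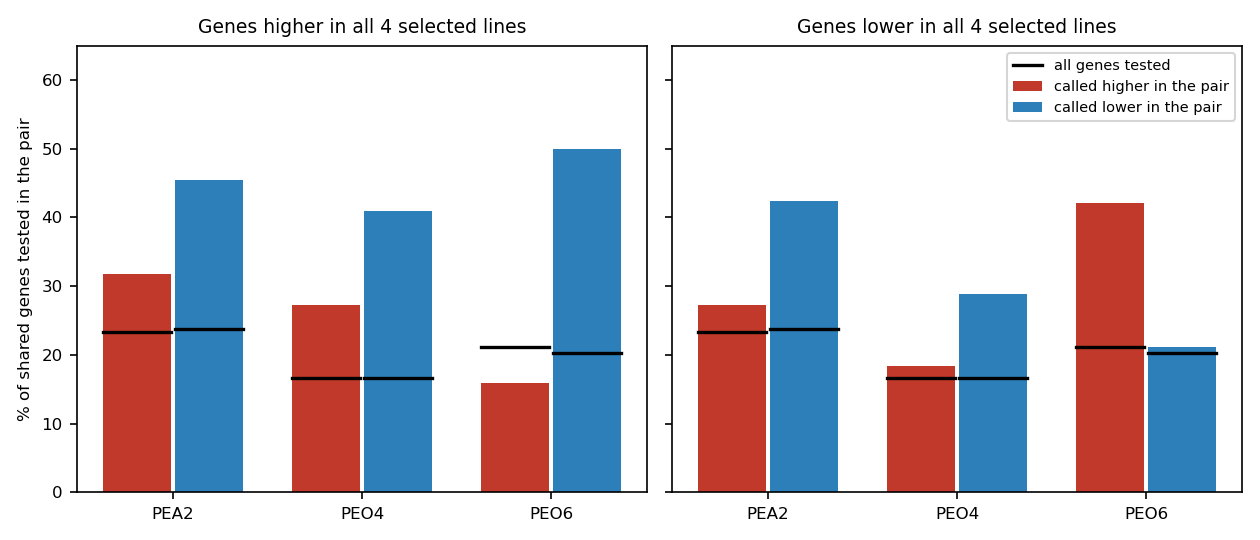
Share of the genes higher (left) and lower (right) in all 4 selected lines that were called higher (red) or lower (blue) in each clinically derived pair; black bars give the share of all genes tested in that pair. Among genes higher in the selected lines, those called lower (40.9% to 50%) outnumber those called higher (15.9% to 31.8%) in each pair.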

How the data were processed

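Poly(A) RNA of cell pellets was sequenced as paired-end reads. Per the study's methods the authors quantified reads with salmon in the nf-core/rnaseq pipeline on GRCh38, and whether strand was used is not given in the sources used here, so antisense and overlapping genes are uncertain. They deposited a table of expected counts per gene (29744 genes, 88.4% of values whole) and a table of TPM, which divides by effective gene length and scales each library to a common total. For the count models these estimates were rounded.

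Each selected line was fitted against its parent with DESeq2 1.42.0 (R 4.3.3), with line and replicate number as terms, as in the study's methods. Calls had a Benjamini-Hochberg adjusted p under 0.05 over all genes tested. The pooled fit had status, family and replicate number as terms, the family test added their interaction, and the line-level fit used counts summed per line with family as covariate. Alternatives used edgeR 4.0.16 and limma 3.58.1 (consensus correlation within lines 0.416). Scripts were tested on simulated data. TPM was analysed as log2(TPM + 1). Folds against a line with at most 3 counts in each library are bounds from that floor.

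Members and lists were chosen with earlier results of these data known. Named were the 15 higher and 15 lower shared genes with the largest smallest change at a mean normalised count of at least 50, list members shared by all 4 lines, the 2 leading pooled members of each list, the 5 leading line-level genes each way and 3 genes of each opposite pattern. Other genes were named after their values were seen. The fits without OVCAR4 ResA replicate 1, and with the RNR1 and RNR2 share in place of the replicate term, were chosen after seeing the data. Same-numbered libraries deviated together in OVCAR3 ResA (r = 0.76, 0.34 and 0.581) but not in the other pairs. Promoters and positions come from RefSeq, GRCh38.p14, and intervals of genes are not those of the authors' annotation. Counts cover sequencing error only as far as replicates show it. Some genes that met the naming rule are not reported here.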

Additional observations from a re-analysis of the deposited data

Results flagged for a closer look

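Among the genes chosen by the naming rule, 18 changed by a different amount in the OVCAR4 family than in the OVCAR3 family by the DESeq2 test of status by family. Values here are the log2 change in OVCAR4 minus that in OVCAR3, with the adjusted p. The genes chosen for opposite changes differ by that choice and are given as a description, namely FAM107A at -5.81, HLA-DMB at -6.66, BDNF at -4.68, GREM1 at 11.35, DCAF12L1 at 10.92 and TACR1 at 8.33.

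Of genes that changed the same way in all 4 lines, STC1 was at -3.50 (DESeq2 adjusted p = 0.000781) and MX2 at -4.73 (0.00515). BMP4 was at 3.86 (0.0236), SFRP1 at 3.53 (0.0112) and LINC00667 at 1.41 (0.0251). In all, 14 of the 83 shared genes passed this test, as did 10.7% of all genes tested. Of the 9 that the rule did not choose, PTPRM was at 4.51 (DESeq2 adjusted p = 6.04e-10), ARMCX2 at -2.02 (5.72e-07), GPR39 at 3.21 (5.4e-06) and NREP at -3.01 (0.0028), and the others were PHLDA1, LPAR1, LRP1B, PI15 and SALL4. The values of BMP4, MX2, LPAR1, LRP1B and PI15 involve a line at or under 3 counts and depend on how such lines are fitted. That of STC1 rests on OVCAR3 at 0.0716 TPM or less.

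The others belong to lists. They were the copper exporter ATP7A at 1.75 (DESeq2 adjusted p = 0.0293), the DNA ligase LIG1 at -0.62 (0.032), UBE2A, the E2 enzyme of RAD6 type, at 0.93 (0.00622), the kallikrein KLK5 at 4.38 (0.00508) and the ribosomal protein gene RPL7A at -1.40 (0.000138). The matrix protein TGFBI was at 6.54 (0.0179), a value that rests on OVCAR4 at 0.0 TPM in each library and, in OVCAR4 ResA, on 3.62 TPM in replicate 1 against 0.0233 and 0.0453 TPM in its sisters. WT1 was at 4.65 (6.29e-05), and it was under 1 TPM in OVCAR4, where OVCAR4 ResA replicate 1 alone reached 5.91 TPM.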

How the results depend on the processing

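The count of 83 genes called in all 4 lines was 82 with TMM size factors and 86 with a filter on low counts, and 82 of the 83 were among them in each case. It was 134 (66 of the 83 among them) without the replicate block, 13 by edgeR and 221 (63 among them) in one fit of 18 libraries. Without replicate 1, 2 or 3 of every line it was 74, 7 and 18 (34, 7 and 14 of the 83 among them). Without OVCAR4 ResA replicate 1 alone it was 107. With the RNR1 and RNR2 share in place of the block it was 277. Asking it of 3 lines gave 128, 439 and 172 without OVCAR3 ResA, OVCAR3 ResB and OVCAR4 ResA, since fewer calls were required. The 50 genes called opposite ways became 12 by edgeR, 112 in one fit and 167 with that share as covariate. They became 11 to 41 with a replicate of every line left out and 64 without OVCAR4 ResA replicate 1 alone. The pooled count of 2583 became 1403 by edgeR, 175 with the line as block, 1588 on log2(TPM + 1) and 1217 on the same without a filter, with 971 higher and 246 lower, and 764 to 3703 with a replicate left out. The line-level count of 488 became 0 by edgeR, 217 and 221 without OVCAR4 ResA and OVCAR4 ResB, and 135 to 1166 with a replicate left out. The 1885 genes that differed between families became 2036 without the block and 573 to 1431 with a replicate of every line left out. They became 2103 without OVCAR4 ResA replicate 1 alone. In the clinical pairs the block changed counts of same-direction calls from 30, 23 and 14 to 28, 23 and 15. Same-numbered libraries correlated at -0.0785, 0.426 and -0.576 in OVCAR3 ResB, at -0.466, -0.383 and -0.104 in OVCAR4 ResA and at -0.51, -0.357 and -0.0359 in OVCAR4 ResB. Where no construction is named, the cause was not tested. Over the named genes' pooled changes, 1149 values stayed on their side of the threshold, 225 fell short of it with the same direction, and none reversed. Of the named genes 79 were called in the pooled contrast on these same libraries, so the lack of reversals is not independent evidence. Low genes such as PLEKHG4B and ITGB2 rest on few reads per library.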

Other observations

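Genes of chromosome X stood above the rest in the selected OVCAR4 lines. Over 450 X-linked genes tested in all 4 comparisons the median log2 fold change was 0.83 in OVCAR4 ResA and 0.77 in OVCAR4 ResB, against 0.08 and 0.12 in OVCAR3 ResA and ResB. On log2(TPM + 1) the medians were 1.11 and 1.16, against 0.41 and 0.44 for all genes. X-linked genes made up 3.28% of those tested, and 5 of the 44 genes higher in all lines were X-linked, namely KLHL13, MPP1, NHSL2, BRWD3 and the ubiquitin ligase HUWE1, with ARMCX2 among the 39 lower.

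The 16 mitochondrially encoded genes had median log2 fold changes of -0.53, 0.13, -1.77 and -1.59 in OVCAR3 ResA, OVCAR3 ResB, OVCAR4 ResA and OVCAR4 ResB. None was called in the same direction in all 4 lines. With 0.305% of all genes higher and 0.27% lower in all 4, this absence is near the background and is not a result about these genes.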
